A study of Homo sapiens with 6 samples.

Results

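The genes described here were the thrombospondins THBS1, THBS2, THBS3, THBS4 and COMP, the tenascins TNC and TNXB, the periostin gene POSTN, and SPARC with its relative SPARCL1. They were chosen by name as genes of matricellular proteins and found by pairing Ensembl identifiers with symbols. All 10 were among the 28181 genes of the files. The 6 RNA samples came from UE7T-9, human marrow-derived mesenchymal stem cells made immortal by hTERT and a papillomavirus E7 gene. The 3 UE7T-9 SHC4 samples (SHC4 libraries) were infected with a lentivirus that carried SHC4 behind a CMV promoter, and selected with puromycin. The 3 UE7T-9 Cont samples (controls) are called nontarget with a wild-type genotype in the labels, and by the study's methods carried GFP in the same lentiviral vector. All cells were grown in DMEM. The design text speaks of clones, and the sources do not settle whether the 3 samples of a group came from separate infections or clones, so p-values measure only the spread between these samples.

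Matricellular proteins are secreted into the extracellular matrix, where they bind cells, growth factors and structural fibres without being a main load-bearing part. Thrombospondins 1 and 2 form trimers, carry properdin-like repeats that bind CD36, and inhibit the growth of blood vessels, and thrombospondin 1 can also activate latent TGF-beta. Thrombospondins 3 and 4 and COMP form pentamers without these repeats and are known from cartilage, tendon and muscle. In bone marrow stroma, tenascin C, periostin and SPARC are made by mesenchymal and osteoblastic cells and regulate adhesion, collagen assembly and the retention of blood-forming cells.

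The deposited values were normalized counts, the reads of a gene divided by 1 size factor per library. The reads behind them could be recovered and ranged from 18144993 to 27721397 per library. SHC4 had a normalized count of 56.5 to 157 in the controls, against 119166 to 155006 in the SHC4 libraries, as labelled. Control replicate 1 stood apart from its group: across genes its log2 values correlated at 0.975 with those of SHC4 replicate 1, and at 0.967 and 0.962 with the other controls. All 6 mesenchymal markers were present, and their summed normalized count was 119342 to 376269.8 in the controls, against 185764 to 345971 in the SHC4 libraries. COL1A1 made up most of the sum in every library. Of the 6, 5 had a higher mean in the SHC4 libraries, among them PDGFRB (2429 in the controls, 5698 in the SHC4 libraries). NT5E had a lower mean (18701 and 14252), with overlapping groups. The 4 endothelial markers summed to 58.0 to 78.9 and 49.2 to 96.7. VWF was 34.4 to 65.3 over all libraries, TEK 0.832 to 10.8, and CDH5 was at or near 0. PECAM1 was 7.80 to 12.8 in the controls, against 9.67 to 38.4 in the SHC4 libraries. Of 5 blood cell markers 3 were in the files, with sums of 121 to 141 and 108 to 115. Over all libraries CD14 was 52.7 to 88.3, CD34 39.6 to 52.7 and PTPRC 0 to 6.82. The 4 epithelial markers summed to 68.3 to 166 in the controls, against 13.3 to 64.2 in the SHC4 libraries, and KRT18 carried most of the difference. The 4 listed cartilage and tendon markers that were in the files summed to 1487 to 12007 in the controls, against 29686 to 54838 in the SHC4 libraries. ACAN made up most of the sum except in control replicate 3, where it was 695 and SOX9 was 742, and COL2A1 stayed at or below 2.35. The part of these last 2 marker groups in the results on matricellular genes was not tested. In bulk RNA, fewer cells of a type and less RNA per cell cannot be told apart.

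THBS1, THBS2 and THBS3 were higher in all 3 SHC4 libraries than in every control, by 1.79-fold, 3.08-fold and 1.89-fold between group means. Of all genes tested, 9.13% were separated upward in this way and 10.2% downward. For each of these 3 genes control replicate 1 was the control nearest to the SHC4 libraries. TNC was lower on average, with overlapping groups. THBS4, TNXB, POSTN and SPARC differed by less than the spread between libraries of a group, taken without regard to replicate number. COMP and SPARCL1 were at or near 0. With limma on log2 values and Benjamini-Hochberg adjustment over 23040 genes, none of the genes passed an adjusted p of 0.05 with a log2 fold change beyond 1, where 0.0608% of all genes tested did. DESeq2 on the recovered reads gave only THBS1 an adjusted p below 0.05, against 4.14% of the genes it adjusted, and called 0 with the fold change limit, against 2.2%.

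THBS1 (ENSG00000137801, chromosome 15 from 39581079 to 39599466, plus strand) encodes thrombospondin 1. Its normalized count was 84988, 70551 and 44876 in control replicates 1 to 3, against 106680.2, 123577 and 128700.2 in SHC4 replicates 1 to 3. The means were 66805 ± 20316 and 119652 ± 11523 (SD, n = 3 each). All SHC4 libraries lay above all controls, and control replicate 1 was the control nearest to them. The log2 fold change was 0.89 ± 0.33 (SE, 95% interval 0.15 to 1.62, adjusted p = 0.274 from limma). Without control replicate 1 it was 1.08 (adjusted p = 0.0851 from limma), and without control replicate 3 it was 0.62 (adjusted p = 0.590 from limma). DESeq2 gave 0.84 ± 0.24 (SE, adjusted p = 0.0178), and edgeR an adjusted p of 0.228. FSIP1 on the other strand covers 4.89% of the exon bases of THBS1 and had a normalized count of 20.8 to 34.3.

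THBS2 (ENSG00000186340, chromosome 6 from 169215780 to 169254044, minus strand) encodes thrombospondin 2. Control replicates 1, 2 and 3 had 20086, 4525 and 3395 normalized counts, and SHC4 replicates 1, 2 and 3 had 24180.0, 35400.2 and 26563. The groups did not overlap, but control replicate 1 lay near the SHC4 libraries and far above the other controls. The means were 9336 ± 9328 and 28714 ± 5911 (SD, n = 3 each). The log2 fold change from limma is a difference between group means of log2 values, not the log2 of the ratio of these means. It was 2.07 ± 0.55 (SE, 95% interval 0.82 to 3.31, adjusted p = 0.184 from limma). Without control replicate 1 the limma value was 2.85 (adjusted p = 0.000639 from limma), in a fit that called 3.06% of all genes. Without control replicate 3 it was 1.57 (adjusted p = 0.391 from limma). DESeq2 on all libraries gave 1.62 ± 0.79 (SE, adjusted p = 0.266).

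THBS3 (ENSG00000169231, chromosome 1 from 155195588 to 155209051, minus strand) encodes a pentameric thrombospondin. It had normalized counts of 624, 299 and 239 in control replicates 1 to 3, against 773, 766 and 656 in SHC4 replicates 1 to 3. As with THBS2, all SHC4 libraries were higher and control replicate 1 came close to the lowest of them. The means were 387 ± 207 and 732 ± 65.9 (SD, n = 3 each). The log2 fold change, again between means of log2 values, was 1.04 ± 0.30 (SE, 95% interval 0.36 to 1.72, adjusted p = 0.198 from limma). Without control replicate 1 it was 1.44 (adjusted p = 0.0024 from limma), in the fit that called 3.06% of all genes. Without control replicate 3 it was 0.75 (adjusted p = 0.425 from limma). An antisense gene, AC234582.1, covers 22.2% of the exon bases of THBS3 and had a normalized count of 6.89 to 35.8. MTX1 on the other strand covers 3.16% and had a normalized count of 193 to 262. As the strand setting of the counting is not given in the sources used here, the reads of both genes cannot be told apart from those of THBS3 there. Exactly these 3 of the 10 genes were separated upward and 0 downward, where 9.13% of all genes tested were separated upward and 10.2% downward (19.3% together).

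**Figure D1:**
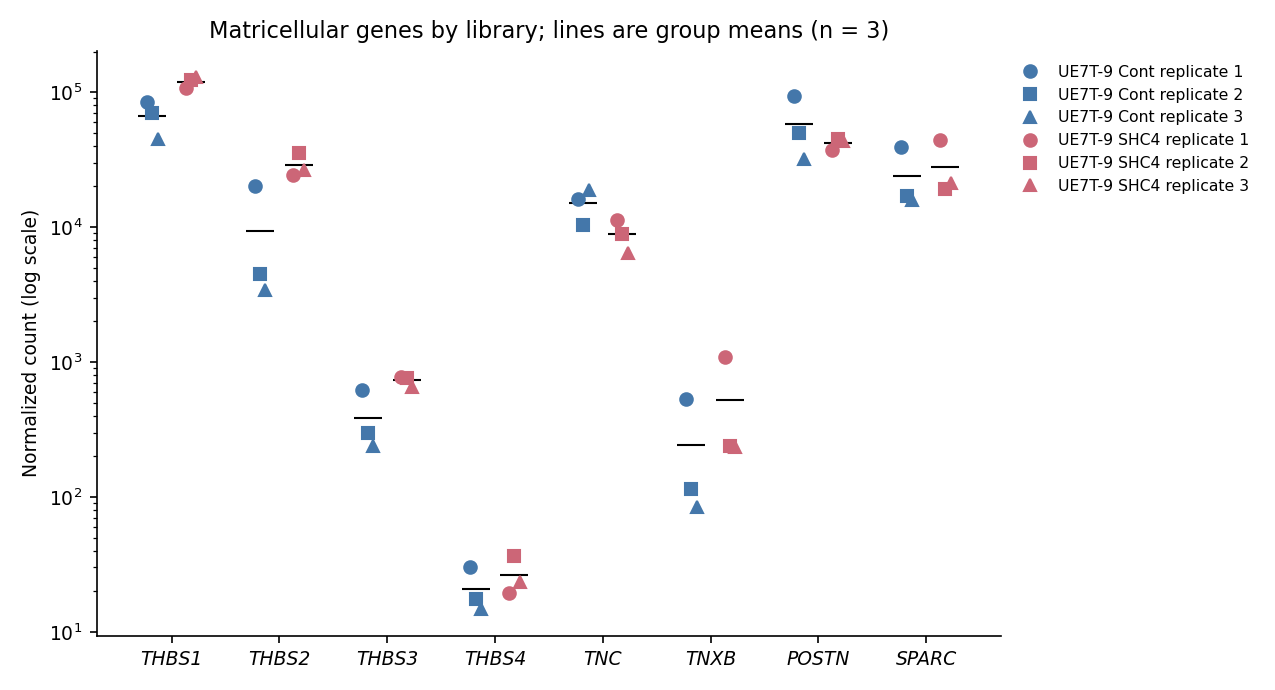
Normalized count (log axis) of the 8 genes with more than a few reads, by library. Blue points are UE7T-9 Cont, red points UE7T-9 SHC4, the marker shape gives the replicate number, and lines are group means (n = 3). For THBS1, THBS2 and THBS3 all red points lie above all blue points, while TNXB and SPARC are highest in replicate 1 of both groups.

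Since THBS1, THBS2 and THBS3 were the genes whose groups separated, the bases before their start sites are shown. They were taken from RefSeq starts on GRCh38.p14, cut from the 250 bases before the start to the longest stretch that no GENCODE 29 exon covers. The THBS2 and THBS3 stretches lie inside the GENCODE 29 positions given above for these genes, between exons. Only the THBS1 stretch lies wholly before its gene in that annotation. Capitals mark the matches, none overlapping another, to the motifs searched on both strands: GGAATG (read by TEAD factors), TTCNNNGAA (STAT factors), TGANTCA (AP-1), TATAAA and CCAAT. The motifs were chosen with the sequences in view.
THBS1, chr15:39580829-39581078, plus strand: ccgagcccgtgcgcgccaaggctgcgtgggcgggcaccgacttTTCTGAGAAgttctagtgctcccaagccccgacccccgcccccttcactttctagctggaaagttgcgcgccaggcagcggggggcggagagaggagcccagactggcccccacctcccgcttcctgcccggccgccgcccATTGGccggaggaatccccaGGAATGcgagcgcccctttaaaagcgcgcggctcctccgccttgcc
THBS2, chr6:169253897-169253989, minus strand: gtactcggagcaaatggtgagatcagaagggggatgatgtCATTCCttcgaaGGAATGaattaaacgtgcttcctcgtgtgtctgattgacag
THBS3, chr1:155207982-155208147, minus strand: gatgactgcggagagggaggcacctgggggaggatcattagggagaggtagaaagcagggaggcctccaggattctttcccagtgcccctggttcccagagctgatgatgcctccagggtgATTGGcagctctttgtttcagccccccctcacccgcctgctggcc

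With the base before the start as position -1, the GGAATG match of THBS1 ended at -41 and its TTCTGAGAA match, the TTCNNNGAA form, at -199. THBS2 had GGAATG on both strands, ending at -98 and -86, and TATAAA at -24 in the part not printed. The THBS3 window held CCAAT only, on both strands, and the window before its other RefSeq start held none of the motifs. Among 35116 windows of 250 bases, 11.9% held GGAATG, 6.57% TTCNNNGAA, 6.57% TGANTCA, 10.7% TATAAA and 32.0% CCAAT. Windows were found for all 10 genes. GGAATG was also in those of SPARC, COMP and a second start of TNXB, TTCNNNGAA and TGANTCA in that of POSTN, CCAAT in those of THBS4 and SPARCL1, TATAAA in those of POSTN and SPARCL1, and none of the motifs in that of TNC. These matches are a description of the letters only.

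THBS4 (ENSG00000113296, chromosome 5 from 79991311 to 80083287, plus strand), the thrombospondin of tendon and muscle, was near the lower end of what these libraries measure well. Its normalized count was 30.2, 17.7 and 14.8 in the controls, against 19.3, 36.6 and 23.3 in the SHC4 libraries. The groups overlapped throughout, with a log2 fold change of 0.34 ± 0.42 (SE, 95% interval -0.60 to 1.28, adjusted p = 0.758 from limma). COMP (ENSG00000105664), cartilage oligomeric matrix protein, had 0, 1 and 3 recovered reads in the controls, against 2, 0 and 0 in the SHC4 libraries. It was the gene of the 10 that did not reach the mean of 1 needed for the test, and no difference was detectable at this depth, where 3 reads correspond to a normalized count of 2.50 to 3.53.

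Per kilobase of exon, THBS1 was the main thrombospondin in every library. Of the summed thrombospondin level per kilobase, THBS1 made up 73.9%, 90.9% and 89.3% in control replicates 1 to 3, against 74.7%, 70.3% and 76.6% in SHC4 replicates 1 to 3. THBS2 made up 24.95%, 8.32% and 9.65% in the controls, against 24.2%, 28.8% and 22.6% in the SHC4 libraries. Control replicate 1 thus had the composition of the SHC4 libraries, and the other controls had a smaller THBS2 share. THBS3 stayed between 0.763% and 1.07% in all libraries, and THBS4 and COMP below that. The THBS1 to THBS2 ratio per kilobase was 2.96, 10.9 and 9.26 in the controls, against 3.09, 2.44 and 3.39 in the SHC4 libraries, so the groups overlapped through control replicate 1.

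**Figure D2:**
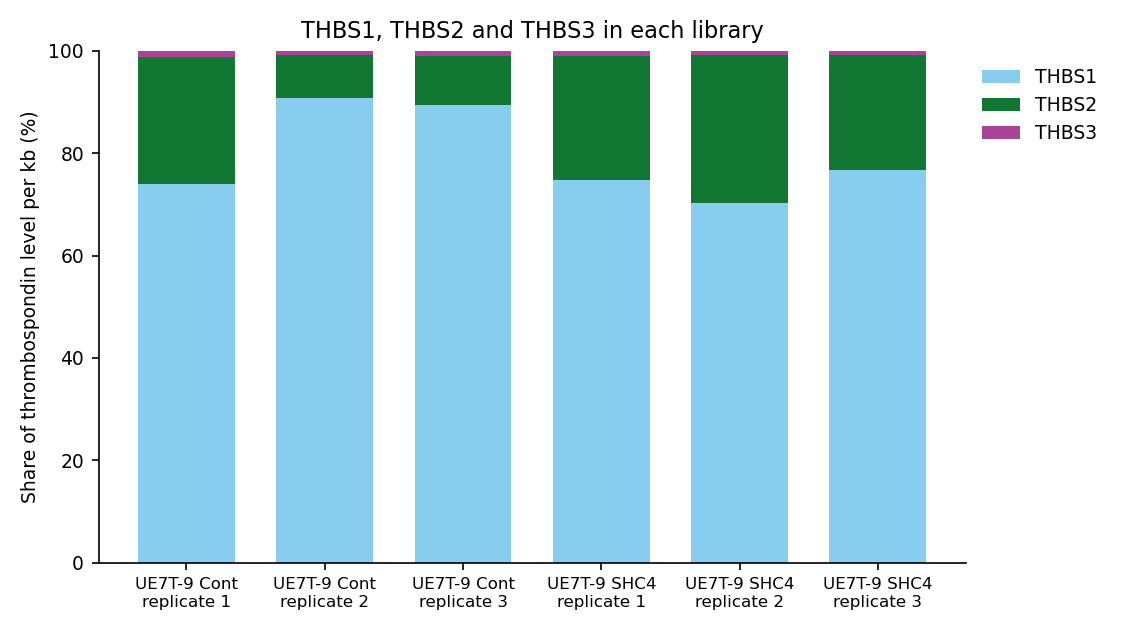
Share of THBS1, THBS2 and THBS3 in the summed level of the 5 thrombospondin genes per kilobase of exon, in percent, for each library (1 bar per library, no error bars). THBS2 takes 8.32% and 9.65% in control replicates 2 and 3, and 22.6% to 28.8% in the other 4 libraries.

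Tenascin C, encoded by TNC (ENSG00000041982, chromosome 9 from 115019578 to 115118257, minus strand), loosens cell adhesion and binds several integrins. Normalized counts were 16168, 10433 and 18799.9 in the controls, against 11189, 8942 and 6414 in the SHC4 libraries. The lowest control, replicate 2, lay below SHC4 replicate 1, so the groups overlapped. The means were 15134 ± 4278 and 8848 ± 2389 (SD, n = 3 each). The log2 fold change was -0.77 ± 0.27 (SE, 95% interval -1.37 to -0.17, adjusted p = 0.249 from limma). DESeq2 gave an adjusted p of 0.0741 and edgeR 0.237.

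Tenascin X, encoded by TNXB (ENSG00000168477, chromosome 6 from 32041153 to 32115334, minus strand), supports collagen fibre spacing. It had normalized counts of 534, 114 and 83.6 in control replicates 1 to 3, against 1080.1, 239 and 236 in SHC4 replicates 1 to 3. Replicate 1 was the highest library in both groups, 5.40 times the mean of the other controls and 4.55 times the mean of the other SHC4 libraries. The log2 fold change was 1.19 ± 0.74 (SE, 95% interval -0.47 to 2.84, adjusted p = 0.496 from limma), and without control replicate 1 it was 2.00 (adjusted p = 0.0728 from limma). Without SHC4 replicate 1 it was 0.46 (adjusted p = 0.799 from limma). TNXA is a partial copy that shares 12.7% of the 25-base words of TNXB transcripts, and 92.6% of its own words are in TNXB. Its normalized count was at most 7.03, and how reads that match both were counted is uncertain.

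POSTN (ENSG00000133110, chromosome 13 from 37562583 to 37598844, minus strand) encodes periostin, which helps cross-link collagen and binds integrins. The normalized counts were 93157, 49777 and 31718 in the controls, against 37555, 45069 and 43596 in the SHC4 libraries. The SHC4 libraries lay close together within the wide range of the controls. The log2 fold change was -0.33 ± 0.37 (SE, 95% interval -1.16 to 0.50, adjusted p = 0.725 from limma), and it turned to 0.078 without control replicate 1 (adjusted p = 0.903 from limma).

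SPARC (ENSG00000113140, chromosome 5 from 151661096 to 151687165, minus strand), also called osteonectin, binds collagen and calcium and is abundant in bone. Its normalized count was 38901, 16986 and 15896 in the controls, against 43941, 19164 and 21198 in the SHC4 libraries. Replicate 1 was the highest in both groups here as well, by 2.37 and 2.18 times the mean of the other libraries of its group. The log2 fold change was 0.26 ± 0.41 (SE, 95% interval -0.66 to 1.17, adjusted p = 0.816 from limma), and it turned to -0.12 without SHC4 replicate 1 (adjusted p = 0.916 from limma). SPARCL1 (ENSG00000152583), also called hevin, had 0, 2 and 0 recovered reads in the controls, against 1, 6 and 0 in the SHC4 libraries, too few for a fold change. Among the mesenchymal markers COL1A1, a collagen I chain, was also highest in replicate 1 of each group, at 315042 and 276719 against 67813 to 130035 in the other libraries, and its part in the SPARC and TNXB values was not tested.

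In UE7T-9 Cont the mean level per kilobase of exon ran from high to low in the order POSTN, THBS1, SPARC, TNC, THBS2, THBS3, TNXB and THBS4. The ranges over libraries overlapped between POSTN and THBS1, THBS1 and SPARC, TNC and THBS2, and TNXB and THBS4. In UE7T-9 SHC4 THBS1 came first with 13065 ± 1258 normalized counts per kilobase (SD, n = 3), above the whole range of POSTN (7700.1 ± 729). SPARC and THBS2 followed, with ranges that overlapped each other, and the SPARC range also overlapped that of POSTN. THBS2 lay above the whole range of TNC, and THBS3, TNXB and THBS4 came below it without overlap. Together the 10 genes took 1.09%, 0.715% and 0.571% of the reads of the controls and 0.974%, 1.01% and 0.976% of those of UE7T-9 SHC4.

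**Figure D3:**
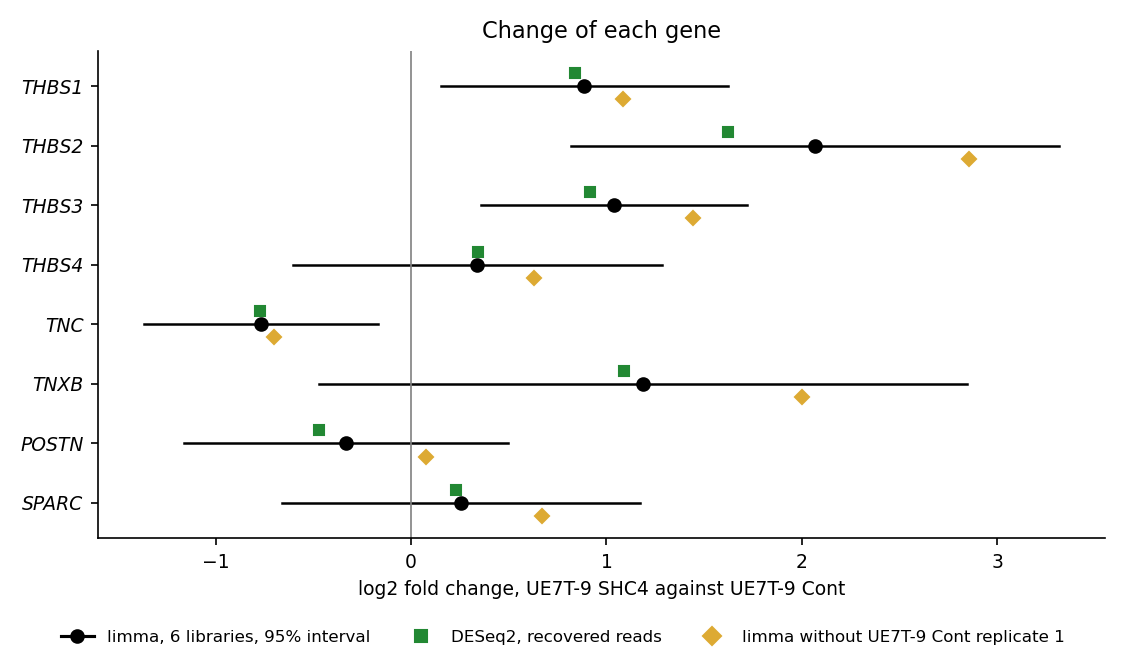
log2 fold change of 8 genes, UE7T-9 SHC4 relative to UE7T-9 Cont. Black points and lines are limma estimates with 95% intervals (n = 3 each), green squares DESeq2 on the recovered reads, and yellow diamonds limma without control replicate 1. The intervals are not adjusted over genes. Those of THBS1, THBS2, THBS3 and TNC leave out 0, which equals an unadjusted limma p below 0.05, reached by 14.4% of all genes. Dropping control replicate 1 moves THBS2 from 2.07 to 2.85, and dropping control replicate 3, not drawn, moves it to 1.57.

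At an unadjusted p below 0.05 limma had 4 of the 9 genes it tested (THBS1, THBS2, THBS3 and TNC), where 14.4% of all genes reached it. edgeR called 0 of the 10 genes, with a smallest adjusted p of 0.228, where 0.0694% of its genes were below 0.05 and 0.0631% also passed the fold change limit. Without control replicate 1, THBS2 and THBS3 passed limma's threshold with the fold change limit and THBS1 did not (log2 fold change 1.08, adjusted p = 0.0851 from limma). That fit left out the control nearest to the SHC4 libraries for these genes, and called 3.06% of all genes, against 0.0608% with all libraries. Leaving out any other library called 0 of the 10 genes. Leaving out SPARCL1, the median log2 fold change of the other 8 genes tested was 0.61, against -0.00395 over all genes. Of these 8 genes 6 had a log2 fold change above 0, where 49.7% of all genes did.

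Of 16 other matricellular genes, 14 were in the files and 12 were tested. They had 5 log2 fold changes above 0 and 7 below (median -0.15), where 49.7% of all genes were above 0. None passed the limma threshold (7 had an unadjusted p below 0.05, against 14.4% of all genes) or that of edgeR, while DESeq2 gave 3 an adjusted p below 0.05, 1 higher and 2 lower, against 4.14% of all genes. CCN3, a CCN protein that restrains proliferation, was 1124, 1402 and 1414 in the controls, against 2267, 3955 and 3955 in the SHC4 libraries. Every SHC4 library was above every control, with a log2 fold change of 1.33 ± 0.22 (SE, adjusted p = 0.0812 from limma, 7.54e-06 from DESeq2). SPP1, which encodes osteopontin, was 1040.1, 10458 and 17769 in the controls, against 349.8, 708 and 943 in the SHC4 libraries. All SHC4 libraries were below all controls, and control replicate 1 was again the nearest. The log2 fold change of SPP1 was -3.23 (adjusted p = 0.187 from limma, 0.00959 from DESeq2), or -4.47 without that library (adjusted p = 0.000698 from limma) and -2.42 without control replicate 3 (adjusted p = 0.392 from limma). SMOC1, a SPARC-related modular calcium-binding protein of basement membranes, had means of 1325 and 679 (adjusted p = 0.195 from limma, 0.0308 from DESeq2).

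CCN4, CCN5 and SPOCK1 had the largest log2 fold changes among the remaining genes of that list, 1.96, 1.76 and 1.09, with limma adjusted p-values of 0.278, 0.184 and 0.316. In all of them control replicate 1 lay inside the range of the SHC4 libraries. CCN4 was 2029, 313 and 163 in the controls, against 1984, 2046 and 1519.7 in the SHC4 libraries, with control replicates 2 and 3 below the other 4 libraries, as for the THBS2 share. Without control replicate 1 all 3 were called by limma, with log2 fold changes of 3.01, 2.38 and 1.65, in the fit that called 3.06% of all genes. Without control replicate 3 the values were 1.201, 1.45 and 0.55 (adjusted p = 0.546, 0.404 and 0.609 from limma).

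Among 18 receptor genes of these proteins, 17 were tested, 11 with a log2 fold change above 0 and 6 below (median 0.16). Over all genes, 49.7% were above 0. Limma called 1 receptor gene, against 0.0608% of all genes. Groups were separated upward for 1 and downward for 3, against 9.13% and 10.2% of all genes. Those separated downward were ITGB3, STAB1 and ITGA3, the last outside the rule for named genes and named after its values were seen. ITGA8, the alpha 8 integrin subunit, whose heterodimer binds tenascin C and osteopontin, rose in UE7T-9 SHC4. Normalized counts were 215, 300.2 and 192 in the controls, against 956, 1413 and 1499.9 in the SHC4 libraries. The lowest SHC4 library was above the highest control, with a log2 fold change of 2.45 ± 0.22 (SE, adjusted p = 0.0047 from limma, 3.33e-19 from DESeq2, 0.0162 from edgeR). Without SHC4 replicate 2 or 3 the limma adjusted p was 0.0723 and 0.089, and without any other library it stayed between 0.00167 and 0.0206. ITGB3, the beta 3 integrin subunit that binds thrombospondin 1, osteopontin and periostin, was 401, 485 and 460.4 in the controls, against 265, 281 and 218 in the SHC4 libraries. All SHC4 libraries were lower, with a log2 fold change of -0.82 ± 0.16 (SE, adjusted p = 0.111 from limma, 0.00216 from DESeq2). Among the remaining receptor genes with a mean of at least 10, ITGA9, CD36 and SDC1 had the largest log2 fold changes, 0.66, 0.49 and -0.44, with limma adjusted p-values of 0.72, 0.785 and 0.335, and ITGA9 turned to -0.054 without control replicate 3. STAB1, a scavenger receptor for SPARC named after its values were seen, had 6, 2 and 3 recovered reads in the controls, against 2, 0 and 0 in the SHC4 libraries, too few for a fold change. CD47, the thrombospondin 1 receptor, fell outside the rule for named genes and was added after its values were seen. Its means were 3739 ± 474 and 3839 ± 574 (SD, n = 3 each), with a 95% interval of the log2 fold change from -0.32 to 0.39.

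Of 12 TGF-beta response genes, 10 had a log2 fold change above 0 and 2 below (median 0.46), where 49.7% of all genes were above 0. None of the 12 was called by limma, with a smallest adjusted p of 0.201. At an unadjusted p below 0.05 limma had 5 of them, where 14.4% of all genes reached it, and edgeR called 0. DESeq2 gave 1 of the 12 an adjusted p below 0.05, against 4.14% of all genes it adjusted. This was IGFBP3, an IGF-binding protein, with normalized counts of 32056, 22726 and 13546 in the controls, against 42503, 54695 and 38931 in the SHC4 libraries. The groups did not overlap, and the log2 fold change was 1.07 (adjusted p = 0.201 from limma, 0.0239 from DESeq2). TAGLN, an actin-binding protein of smooth muscle, and PMEPA1, an inhibitor of TGF-beta signalling, had log2 fold changes of 0.83 and 0.73 (adjusted p = 0.331 and 0.310 from limma).

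**Figure D4:**
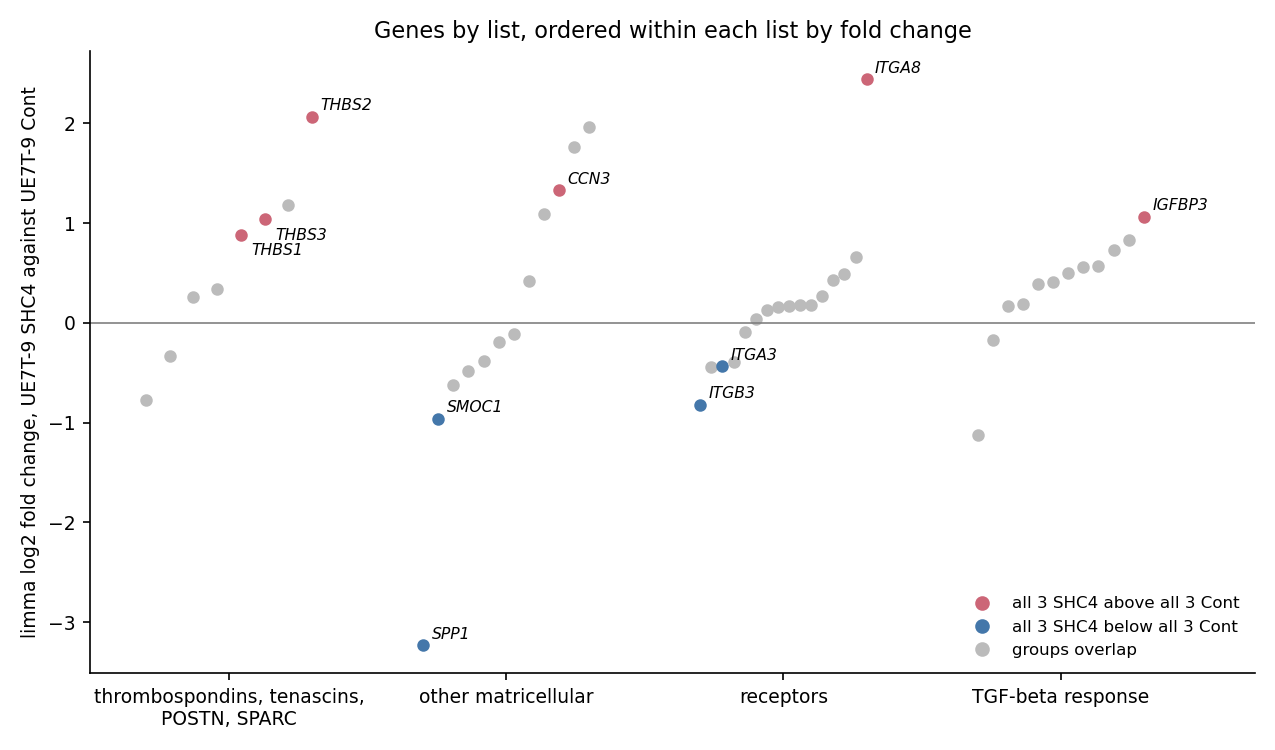
limma log2 fold change (UE7T-9 SHC4 against UE7T-9 Cont, n = 3 each) of the genes of each list with a group mean of at least 10, ordered by value within a list. Red and blue points are genes whose 3 SHC4 libraries lie all above or all below the controls, grey points overlap. ITGA8 (2.45) and SPP1 (-3.23) are the extremes of the 4 lists.

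Over the 6 libraries and 12678 genes averaging 50 or more, those whose log2 values followed THBS1 most closely were CD99L2, SCN3A and BMF (Pearson's r of 0.998, 0.996 and 0.996). THBS2 and THBS3 had an r of 0.929 and 0.916 with THBS1, at ranks 526 and 657, and TNC had -0.808. SPARC was followed most closely by RPL19, RPS2P46 and DOK5 (0.998, 0.997 and 0.994), and TNXB had an r of 0.959 with SPARC at rank 157. The points share 2 groups and 6 libraries, so these values only describe likeness.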

How the data were processed

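The authors deposited 1 signal per gene and library, the gene count divided by a size factor (normalized count), for 28181 Ensembl genes in 6 libraries (UE7T-9 Cont and UE7T-9 SHC4, 3 each, grouped by sample title). The submitters' processing notes name HISAT2 2.0.5, featureCounts 1.5.0-p3 and DESeq2. Build, annotation and strand setting are not given in the sources used here. Within a library each value was a whole number of steps (100% within 0.01 reads), so reads were recovered. Floors in reads cover counting error only.

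Symbols were found for 27968 identifiers (99.2%). Positions and exon lengths (union of exons) come from GENCODE 29 on GRCh38, matched by identifier, and the sequences before start sites from RefSeq on GRCh38.p14. The main test, limma 3.58.1 with a trend (R 4.3.3), took log2(value + 1) of the 23040 genes whose mean reached 1. A gene was called where its Benjamini-Hochberg adjusted p was below 0.05 and its log2 fold change exceeded 1 in size. A fold change on this scale understates low genes. edgeR 4.0.16 and DESeq2 1.42.0 on the recovered reads, other scalings, filters and pseudocounts, a replicate block and leaving out each library were alternatives. The limma step was tested on simulated counts.

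The members, lists and rule for named genes were chosen with earlier results of these data known. The rule took all members, SHC4, list genes called by limma or with a DESeq2 adjusted p below 0.05, up to 3 further genes per list by size of change with a mean of at least 10, overlapping genes, and the 3 genes most like THBS1 and SPARC. Of the overlapping genes and copies, only FSIP1, AC234582.1, MTX1 and TNXA are given, and 1 list gene that the rule names is not reported here.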

Additional observations from a re-analysis of the deposited data

How the results depend on the processing

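Of 112 log2 fold changes (8 genes under 14 alternatives), 107 kept their direction and their side of the threshold, 3 passed it and 2 reversed. The reversals were POSTN without UE7T-9 Cont replicate 1 (0.078, against -0.70 to 0.078 over all libraries left out) and SPARC without UE7T-9 SHC4 replicate 1 (-0.12, of -0.12 to 0.67), both in fits with fewer samples. The number of the 10 genes called was 0 under TMM scaling, library size scaling, pseudocount 0.1, both other filters, DESeq2 and edgeR, and 0 to 2 with each library left out, the 2 being THBS2 and THBS3 without UE7T-9 Cont replicate 1. Over all genes 14 were called, against 24 with TMM scaling, 24 with library size scaling, 40 without a filter, 355 with DESeq2 and 2 to 706 with each library left out (706 without UE7T-9 Cont replicate 1, 6 without UE7T-9 Cont replicate 2, 63 without UE7T-9 SHC4 replicate 1, 2 without UE7T-9 SHC4 replicate 2 and 2 without UE7T-9 SHC4 replicate 3), and the cause was not tested. Library size scaling moved the median log2 fold change of all genes to -0.103.

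With the replicate number as a block, 39 genes were called, and 1 of the 10, TNXB (log2 fold change 1.19, adjusted p = 0.0487 from limma). TNXB was higher in UE7T-9 SHC4 by 1.01, 1.06 and 1.49 on the log2 scale within replicate numbers 1, 2 and 3. SPARC was higher by 0.18, 0.17 and 0.42 within the same numbers, and was not called with the block (adjusted p = 0.426 from limma). Across genes, the residuals of libraries with the same number (1, 2 and 3) had correlations of 0.148, 0.0130 and -0.00696. The value for replicate 1 was the highest of all pairs of a control with an SHC4 library. UE7T-9 Cont replicate 2 correlated best with UE7T-9 SHC4 replicate 3 (0.0992). The labels give no batch, and whether libraries with the same number shared one was not tested. Depth limits COMP and SPARCL1, whose reads lay near the floor of 3 reads.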
